A study of Mus musculus with 40 samples.

Results

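The liver makes most of the proteins that clot blood, and the 10 genes described here encode fibrinogen and the main coagulation factors that hepatocytes secrete. They are the fibrinogen chains Fga, Fgb and Fgg, the vitamin K-dependent zymogens F2 (prothrombin), F7, F9 and F10, the cofactor F5, and F11 and F12 of the contact phase. The genes were chosen by symbol, with earlier results of these data known. They make up 10 of the 21448 genes and 18 of the 30146 probes measured. All 10 genes, and all 18 probes, passed the filter on low counts. For the 6 genes with more than 1 probe, the text gives the most counted probe first and the other 8 probes as a check.

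Male and female Crl:CD1(ICR) mice received GenX, the ammonium salt of a fluorinated ether carboxylic acid, by oral gavage for 90 days. Daily doses per kg of body weight were 0.1 mg, 0.5 mg and 5 mg (mg/kg below), and the controls of both sexes, at 0 mg/kg, received the vehicle, deionized water. Each of the 8 groups held 5 mice, the first 5 animal numbers of that group in the parent study, and each mouse gave 1 section of formalin-fixed, paraffin-embedded liver that was scraped from a slide whole. RNA was measured with TempO-Seq, in which paired DNA probes that bind adjacent stretches of an RNA are ligated, amplified and counted by sequencing. A whole section holds every cell type of the liver, so a lower value could mean fewer hepatocytes or less RNA in each hepatocyte, and these cannot be told apart.

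In clotting, factor VII bound to tissue factor activates factors IX and X, and factor X with its cofactor, factor V, converts prothrombin to thrombin. Thrombin cuts fibrinogen, a hexamer with a pair of each of its chains, so that it polymerizes to fibrin. Factor XII and factor XI form the contact branch, which feeds into factor IX. Factors II, VII, IX and X need a vitamin K-dependent carboxylation in the hepatocyte before they are secreted, and fibrinogen is also an acute-phase protein that rises with interleukin-6 signaling.

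In mouse genome GRCm38, the fibrinogen genes lie side by side on chromosome 3, within 42140 bases, with Fgg at chr3:83007724-83015049 and Fga at chr3:83026076-83033627 on the plus strand and Fgb at chr3:83040141-83049863 on the minus strand. F7 (chr8:13026034-13035809) and F10 (chr8:13037308-13056676) are neighbors on the plus strand of chromosome 8, with 1498 bases between them, and F11 (chr8:45241174-45262031, minus strand) lies 32.2 Mb further along that chromosome. The other members are F2 on chromosome 2, F5 on chromosome 1, F12 on chromosome 13 and F9 on chromosome X. The promoters of the fibrinogen chains, which were each called lower at 5 mg/kg in both sexes, of F7 and F11, which fell the most in males, and of F9, which did not pass the threshold at any dose, are printed below from RefSeq for GRCm38.p6. Each runs from 250 bases before to 50 bases after the start, 5′ to 3′ on the strand of the gene, and capitals mark matches to the motifs described after them.
Fga, chr3:83025903-83026202, + strand: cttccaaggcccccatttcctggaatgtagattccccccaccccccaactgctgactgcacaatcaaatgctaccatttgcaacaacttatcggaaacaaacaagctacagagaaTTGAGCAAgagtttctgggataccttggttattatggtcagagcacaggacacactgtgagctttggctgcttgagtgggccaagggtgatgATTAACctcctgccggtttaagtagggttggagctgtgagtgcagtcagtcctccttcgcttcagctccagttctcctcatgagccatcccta
Fgb, chr3:83049814-83050113, - strand: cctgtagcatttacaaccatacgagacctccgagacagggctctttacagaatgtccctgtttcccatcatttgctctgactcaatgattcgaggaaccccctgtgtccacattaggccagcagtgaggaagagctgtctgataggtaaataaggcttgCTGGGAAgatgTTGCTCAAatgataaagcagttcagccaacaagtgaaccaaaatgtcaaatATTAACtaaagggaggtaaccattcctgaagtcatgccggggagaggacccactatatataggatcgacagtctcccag
Fgg, chr3:83007474-83007773, + strand: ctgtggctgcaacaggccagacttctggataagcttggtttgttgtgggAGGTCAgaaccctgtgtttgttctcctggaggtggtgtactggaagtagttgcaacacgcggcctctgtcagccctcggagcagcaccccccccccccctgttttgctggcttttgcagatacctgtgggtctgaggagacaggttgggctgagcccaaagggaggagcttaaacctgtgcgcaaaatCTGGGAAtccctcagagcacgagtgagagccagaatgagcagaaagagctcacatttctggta
F7, chr8:13025784-13026083, + strand: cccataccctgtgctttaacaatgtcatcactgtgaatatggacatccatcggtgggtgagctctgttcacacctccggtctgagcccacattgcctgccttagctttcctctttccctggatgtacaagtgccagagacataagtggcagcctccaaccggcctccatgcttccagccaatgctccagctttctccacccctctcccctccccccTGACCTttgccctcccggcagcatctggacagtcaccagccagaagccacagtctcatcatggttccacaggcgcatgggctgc
F11, chr8:45261982-45262281, - strand: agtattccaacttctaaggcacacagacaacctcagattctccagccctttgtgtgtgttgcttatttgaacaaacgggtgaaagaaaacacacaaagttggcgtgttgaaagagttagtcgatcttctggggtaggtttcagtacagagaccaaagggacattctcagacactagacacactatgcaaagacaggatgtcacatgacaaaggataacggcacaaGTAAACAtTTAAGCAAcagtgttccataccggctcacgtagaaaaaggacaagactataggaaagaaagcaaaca
F9, chrX:59999214-59999513, + strand: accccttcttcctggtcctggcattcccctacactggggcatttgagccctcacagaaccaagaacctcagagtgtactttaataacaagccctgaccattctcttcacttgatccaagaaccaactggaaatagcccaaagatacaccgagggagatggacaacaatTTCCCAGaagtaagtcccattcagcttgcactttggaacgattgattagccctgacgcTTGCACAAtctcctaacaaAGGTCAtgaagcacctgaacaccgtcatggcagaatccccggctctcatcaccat

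The motifs searched on both strands were GTTAAT, the core bound by HNF1, AGGTCA, the core bound by nuclear receptors such as HNF4, TTGCNNAA for C/EBP factors, TGTTTAC for forkhead factors and CTGGGAA, an acute-phase element bound by STAT3. A promoter was found for each of the 10 members. AGGTCA was present in 6 of the 10 (Fgg, F2, F7, F9, F10 and F5), compared with 16.3% of all 32851 promoters of this length. TTGCNNAA was present in 4 (Fga, Fgb, F9 and F11) against 10.8%, GTTAAT in 3 (Fga, Fgb and F2) against 7.1%, CTGGGAA in 3 (Fgb, Fgg and F9) against 11.1%, and TGTTTAC in F11 alone against 3.65%. No match overlapped another, and the promoter of F12 held none of these letters. The fibrinogen genes did not share a single set of motifs, since Fga and Fgb held GTTAAT and Fgg did not. In F7, F10 and F2, the AGGTCA core lay on the minus strand close to the start, at positions -34 to -29, -30 to -25 and -33 to -28. A match is a description of the letters in this window, and binding was not measured.

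Libraries of 39 mice held 10341341 to 15562253 reads, and the library of 1 female at 0.5 mg/kg (mouse 355), with 6711981 reads, was left out, so that this group held 4 mice. Low counts came in steps of 20.8 to 49.8 reads in each library, so that a gene with few steps is known less precisely than its number of reads implies. The total in such steps had a median of 329947 in the male controls, 591295 in the males given 5 mg/kg, 418492 in the female controls and 320470 in the females given 5 mg/kg. Values are CPM, counts scaled to a common library size by TMM, and a gene was called at an adjusted p below 10% in edgeR. Hepatocyte markers were abundant, with a summed level of 31720 to 38410 CPM over 6 markers in male controls and 23640 to 40380 CPM in female controls.

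At 5 mg/kg, 7 of the 10 genes were called lower in males and 6 in females, and none were called higher in either sex. The genes called in both sexes were Fga, Fgb, Fgg, F5, F7 and F11, and F10 was called in males. Of all probes tested, 3.45% were called lower and 4.83% higher in males. For females these shares were 1.83% and 1.83%. The median log2 fold change of the 10 genes was -0.75 in each sex, beside 0.10 (males) and -0.01 (females) over all probes. With mouse 355 included in the fit, the female calls of Fgg, F5, F7 and F11 were lost (adjusted p = 0.207, 0.322, 0.322 and 0.16) and so was the male call of F5 (adjusted p = 0.295). The log2 fold changes in that fit were -0.81, -1.12, -1.12 and -1.23 for these genes in females and -0.95 for F5 in males, near those of the main fit. F2, F9 and F12 were not called in either sex.

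At 0.5 mg/kg, 4 genes were called lower in males (Fgg, F7, F10 and F11) and none in females. None were called higher in either sex. Of all probes, 0.638% were called lower and 1.74% higher in males, against 0.028% and 0.185% for females. The median log2 fold change of the members was -0.36 (males) and -0.33 (females). Over all probes it was 0 in each sex to 2 decimals. All 10 members lay below 0 in females, but with mouse 355 included Fgg lay above, at 0.51 (adjusted p = 0.502). In females 3 members (Fga, Fgb and F9) had an unadjusted p below 0.05 in edgeR, beside 1826 of 17877 probes, and DESeq2 called 0. With 1 mouse left out in turn, the 4 calls in males became 1 to 3, and of these calls that of Fgg alone was made without each of the 10 mice. With mouse 355 included, none of the 4 was made. Mouse 355 is in neither male group, and the log2 fold changes in that fit stayed at -0.70 (Fgg), -0.78 (F7), -0.45 (F10) and -1.42 (F11).

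At 0.1 mg/kg, no member was called in either sex, beside 0.0336% of probes in either direction in males and 0% in females. DESeq2 called 0 members as well, and 1 member in each sex had an unadjusted p below 0.05 in edgeR, beside 2435 (males) and 1843 (females) of 17877 probes, so that the share of members was not above that of all probes. These were F7 in males, with a log2 fold change of -0.59 ± 0.24 (SE, unadjusted p = 0.0163, adjusted p = 0.35), and F5 in females, with -0.69 ± 0.26 (unadjusted p = 0.00926, adjusted p = 0.474). F7 ranged from 27.3 to 52.5 CPM in males at 0.1 mg/kg and from 57.7 to 72.7 CPM in controls. These groups did not overlap, which held for 1 of the 10 members, and the change was not called. The share of all probes without overlap was not counted at this dose, so the missing overlap is a description only. F5 in females at 0.1 mg/kg ranged from 24.2 to 72.4 CPM and overlapped the control range of 58.6 to 101 CPM.

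**Figure D1:**
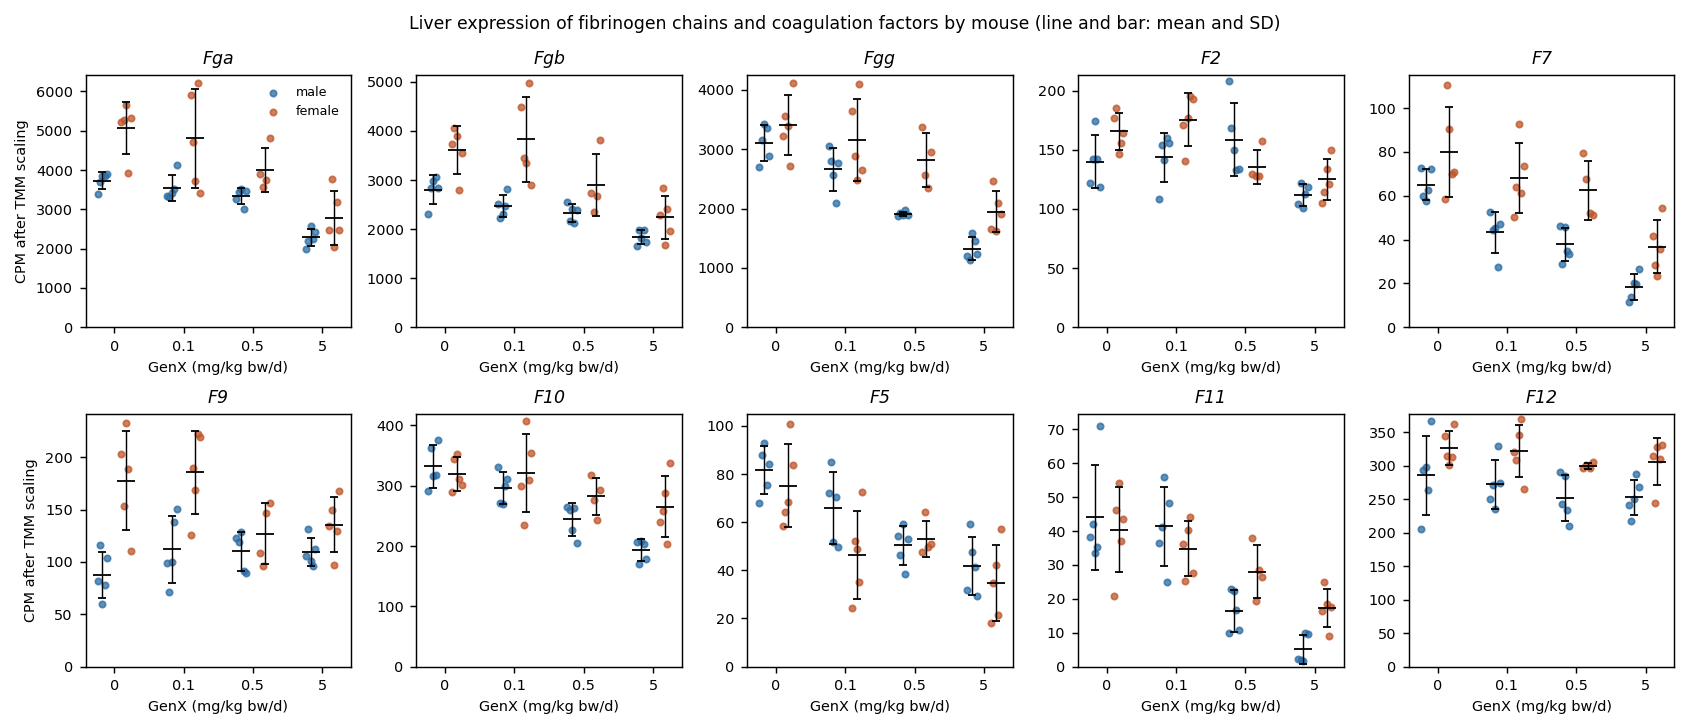
CPM after TMM scaling (vertical axis, from 0) of the most counted probe of each gene against the dose of GenX, with 1 point per mouse, males in blue and females in orange, and the mean and SD in black. F11 in males runs from 33.4 to 71.1 CPM in controls to 1.75 to 9.80 CPM at 5 mg/kg, while F12 shows no such step.

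**Figure D2:**
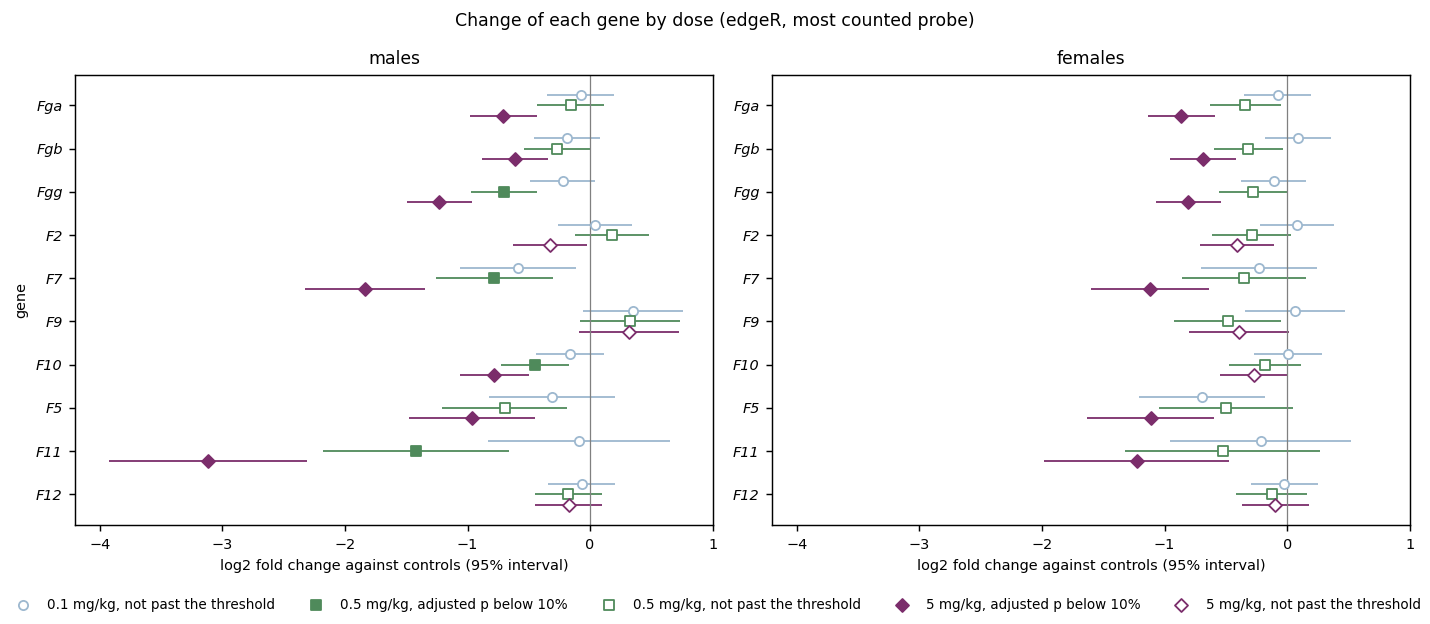
Log2 fold change against controls of the same sex (horizontal axis) with its 95% interval for each gene and dose, where filled symbols are past the threshold. The lowest value is that of F11 in males at 5 mg/kg, -3.12, and F9 lies above 0 at every dose in males.

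Fgg, the gamma chain of fibrinogen, had the largest fall of the chains in males on the most counted probes, though not on the second probes, which are given further on. In male controls it was measured at 2704, 3161, 3420, 3356 and 2877 CPM, at 0.5 mg/kg at 1873, 1919, 1888, 1975 and 1885 CPM, and at 5 mg/kg at 1203, 1139, 1589, 1454 and 1236 CPM. Every male at 0.5 mg/kg lay below every control, and every male at 5 mg/kg lay below every male at 0.5 mg/kg. The log2 fold change was -0.70 ± 0.13 (SE, adjusted p = 0.000772) at 0.5 mg/kg and -1.23 ± 0.13 (adjusted p = 1.08e-09) at 5 mg/kg, which is 61.5% and 42.7% of the control level. In female controls, Fgg was at 3228, 3559, 3398, 2725 and 4109 CPM, and in females at 5 mg/kg at 1651, 2456, 1618, 2086 and 1912 CPM. These groups did not overlap either, and Fgg fell to 57.1% of controls (log2 fold change -0.81 ± 0.13, adjusted p = 2.92e-05). In females at 0.5 mg/kg, Fgg was at 82.6% of controls, which did not pass the threshold (adjusted p = 0.487).

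Fga, the alpha chain, was called at 5 mg/kg in both sexes. Male controls were at 3383, 3690, 3848, 3842 and 3899 CPM and males at 5 mg/kg at 1991, 2183, 2585, 2240 and 2419 CPM. Female controls were at 5214, 5261, 5653, 3926 and 5311 CPM and females at 5 mg/kg at 2483, 3771, 2032, 3187 and 2470 CPM. Treated mice at 5 mg/kg lay below all controls in both sexes, whereas males at 0.5 mg/kg, at 3010 to 3513 CPM, overlapped their controls. Fga fell at 5 mg/kg to 61.2% of male controls (log2 fold change -0.71 ± 0.14, adjusted p = 0.000182) and to 54.98% of female controls (-0.86 ± 0.14, adjusted p = 1.35e-05).

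Fgb, the beta chain, fell at 5 mg/kg to 65.3% of male controls (log2 fold change -0.61 ± 0.13, adjusted p = 0.0011) and to 62.0% of female controls (-0.69 ± 0.13, adjusted p = 0.000498). In males, the treated mice at 5 mg/kg (1665 to 1982 CPM) lay below all controls (2300 to 3063 CPM). In females, the highest treated mouse, at 2828 CPM, lay just above the lowest control, at 2798 CPM. At 0.5 mg/kg, Fgb was at 82.9% (males) and 80.3% (females) of controls, with adjusted p of 0.27 and 0.485.

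Because the chains are assembled in equal numbers, their ratios within a mouse were compared, which needs no scaling between libraries. In males, the ratio of Fgg to Fgb reads had a median of 1.11 in controls (range 1.01 to 1.18), 0.791 at 0.5 mg/kg (0.734 to 0.928) and 0.722 at 5 mg/kg (0.575 to 0.878), with no overlap between controls and either dose. The log2 ratio fell by 0.43 at 0.5 mg/kg and by 0.62 at 5 mg/kg, each with an exact permutation p of 0.00794, the smallest that 5 against 5 mice allow (two-sided, 0.0476 after adjustment over 12 ratio tests). In females, the ratio of Fgg to Fgb at 5 mg/kg was 92.5% of that in controls (exact permutation p = 0.31, adjusted p = 0.413). The ratio of Fga to Fgb in females fell to 87.9% at 5 mg/kg and to 88.4% at 0.1 mg/kg (exact permutation p = 0.0238 and 0.0317, both 0.0952 adjusted), with overlapping mice, and was 99.2% at 0.5 mg/kg (exact permutation p = 0.825). Whether the ratios changed differently in the sexes was not tested.

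The ratios depended on the probe. The second most counted probes of Fgg and Fga were also used, with the most counted probe of Fgb kept. The Fgg to Fgb log2 ratio in males then fell by 0.21 at 0.5 mg/kg and by 0.39 at 5 mg/kg (exact permutation, adjusted p = 0.206 and 0.119). The Fga to Fgb log2 ratio fell by 0.34 and 0.50 instead (exact permutation, both adjusted p = 0.0476). The second probe of Fgb, with a log2 fold change of -1.702 in males at 5 mg/kg, was not used in these ratios. In females, with the second probes, the Fga to Fgb ratio did not pass at 5 or 0.1 mg/kg (exact permutation, adjusted p = 0.206 and 0.119). With the most counted probes, the Fga to Fgb ratio in males at 5 mg/kg was 93.2% of that in controls (exact permutation p = 0.262, adjusted p = 0.393). Which probe follows the transcripts of each chain better was not tested.

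**Figure D3:**
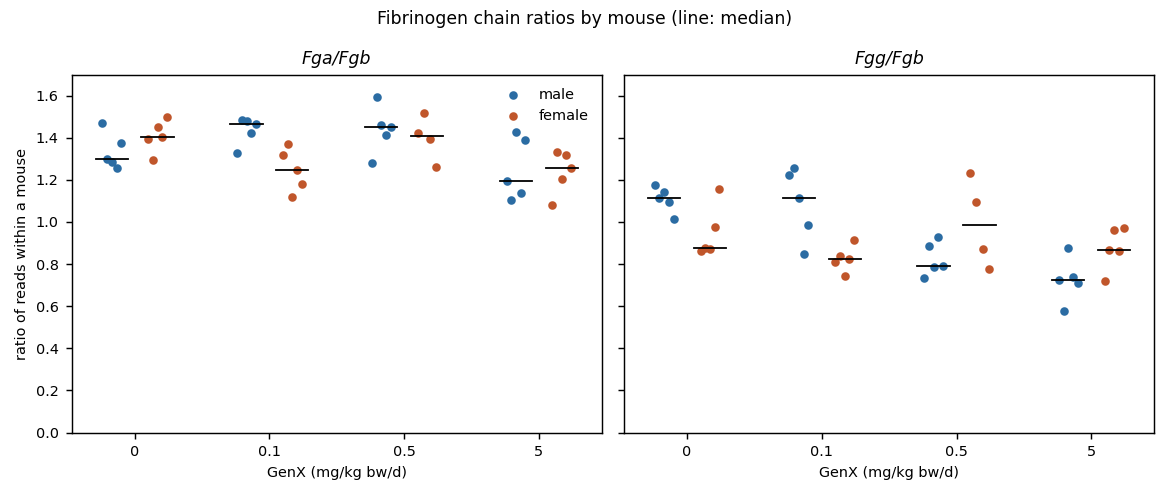
Ratio of the reads of Fga (left) and Fgg (right) to those of Fgb within each mouse (vertical axis, from 0) against dose, with 1 point per mouse and the median as a line, for the most counted probes. In males the Fgg to Fgb ratio is 1.01 or higher in each control and 0.928 or lower in each mouse at 0.5 and 5 mg/kg.

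F7 encodes the zymogen that starts clotting with tissue factor. In male controls it was measured at 72.7, 59.9, 57.7, 62.5 and 72.5 CPM, at 0.5 mg/kg at 46.0, 29.1, 45.8, 34.8 and 33.3 CPM, and at 5 mg/kg at 11.4, 13.6, 19.98, 19.6 and 26.5 CPM. The 3 groups did not overlap. F7 fell to 58.1% of controls at 0.5 mg/kg (log2 fold change -0.78 ± 0.24, adjusted p = 0.0864) and to 27.99% at 5 mg/kg (-1.84 ± 0.24, adjusted p = 1.57e-07). The call at 0.5 mg/kg was near the threshold and was made in 2 of the 10 fits that left out 1 mouse. In female controls F7 was at 58.3, 110, 90.4, 69.8 and 71.0 CPM, and at 5 mg/kg at 41.5, 28.5, 23.6, 35.8 and 54.7 CPM. The female groups did not overlap, and F7 fell to 46.0% (log2 fold change -1.12 ± 0.24, adjusted p = 0.00185).

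F10, the neighbor of F7 on chromosome 8, encodes factor X. In males it ranged from 290.6 to 376 CPM in controls, from 205 to 265 CPM at 0.5 mg/kg and from 171 to 209 CPM at 5 mg/kg. Both dose groups lay below all controls, and F10 fell to 73.4% (log2 fold change -0.45 ± 0.14, adjusted p = 0.0974) and 58.2% (-0.78 ± 0.14, adjusted p = 5.54e-05). In females at 5 mg/kg it was at 83.0% of controls with overlapping mice (adjusted p = 0.308). The second probe of F10 gave another picture in males. It was at 95.8% of controls at 0.5 mg/kg and at 96.5% at the highest dose (log2 fold change -0.05 ± 0.18, adjusted p = 1), and its 95% interval at 5 mg/kg, -0.41 to 0.30, did not meet that of the most counted probe, -1.06 to -0.50. The fall of F10 in males rested on 1 of its 2 probes.

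F2 (prothrombin) and F9 (factor IX) were not called against controls at any dose. F2 at 5 mg/kg was at 79.9% of male controls (adjusted p = 0.198) and at 75.4% of female controls (adjusted p = 0.189), with overlapping mice. With DESeq2 in place of edgeR, F2 passed the threshold at this dose, at an adjusted p of 0.031 for males and 0.0658 for females. F9 in males was at 125.5% of controls at 0.5 mg/kg and at 124.7% at 5 mg/kg (log2 fold change 0.32 ± 0.20, adjusted p = 0.428), and its 95% interval at 5 mg/kg, -0.09 to 0.73, did not reach the interval of F7, -2.33 to -1.35. In females, F9 was at 71.4% at 0.5 mg/kg and 76.3% at 5 mg/kg (adjusted p = 0.485 and 0.317).

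F5 encodes the cofactor of factor X. Male controls were measured at 67.9, 87.9, 92.8, 75.6 and 84.3 CPM and males at 5 mg/kg at 31.9, 59.0, 47.8, 41.4 and 29.2 CPM. Female controls were measured at 58.6, 64.1, 68.5, 101 and 83.6 CPM and females at 5 mg/kg at 18.2, 34.5, 42.4, 21.4 and 57.2 CPM. The groups did not overlap in either sex. F5 fell to 51.2% of male controls (log2 fold change -0.96 ± 0.26, adjusted p = 0.0104) and to 46.2% of female controls (-1.11 ± 0.26, adjusted p = 0.00507). Males at 0.5 mg/kg, at 38.5 to 59.2 CPM, also lay below all controls, at an adjusted p of 0.207 (0.0688 with DESeq2).

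F11, the zymogen of the contact branch that activates factor IX, had the largest fold change of the members in males. Male controls were measured at 38.3, 42, 33.4, 35.4 and 71.1 CPM, males at 0.5 mg/kg at 9.79, 22.8, 22.2, 16.7 and 10.7 CPM, and males at 5 mg/kg at 2.16, 2.02, 1.75, 9.80 and 9.65 CPM. Both dose groups lay below all controls. F11 fell to 37.3% at 0.5 mg/kg (log2 fold change -1.42 ± 0.38, adjusted p = 0.0341) and to 11.54% at 5 mg/kg (-3.12 ± 0.40, adjusted p = 8.31e-08, 95% interval 6.59% to 20.2% of controls). The males at 5 mg/kg had 32, 34, 23, 138 and 137 reads on this probe, which is about 1 read step in 3 of the mice and 6 or 7 in the other two, so that the size of the fall rests on few ligated probe pairs. With counts divided by the read step, its log2 fold change was -3.07 (edgeR, adjusted p = 1.14e-08).

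In females, F11 was at 20.9, 46.3, 54.1, 37.2 and 43.6 CPM in controls and at 16.3, 24.9, 18.4, 8.92 and 17.7 CPM at 5 mg/kg. The groups overlapped by 1 control mouse, and F11 fell to 42.7% (log2 fold change -1.23 ± 0.37, adjusted p = 0.0628). This call was made in 4 of the 10 fits that left out 1 mouse. F12, the first zymogen of the contact phase, was at 88.5% (males) and 93.5% (females) of controls at 5 mg/kg, with overlapping mice and adjusted p of 0.604 and 1. Its 95% interval at 5 mg/kg was 73.3% to 107% of male controls and 77.4% to 113% of female controls. A second probe of F12 was at 67.7% of controls in males at 5 mg/kg (adjusted p = 0.0175), with all treated mice below all controls.

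Across the 18 probes, the fall of the fibrinogen chains at 5 mg/kg was seen on more than 1 probe of each gene in males. The second probe of Fga had a log2 fold change of -1.11 (males, adjusted p = 9.98e-07) and -0.92 (females, adjusted p = 7.66e-05), and that of Fgg -1.002 (males, adjusted p = 2.23e-06) and -0.65 (females, adjusted p = 0.00463). For the second probe of Fgb the values were -1.702 (males, adjusted p = 0.0103) and -0.77 (females, adjusted p = 0.42). The least counted probe of Fga was not called, at -0.43 and -0.50. The second probe of Fga was also called at 0.5 mg/kg in males (log2 fold change -0.62, adjusted p = 0.0254), where the most counted one was not. F5, F7, F9 and F11 had 1 probe each.

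**Figure D4:**
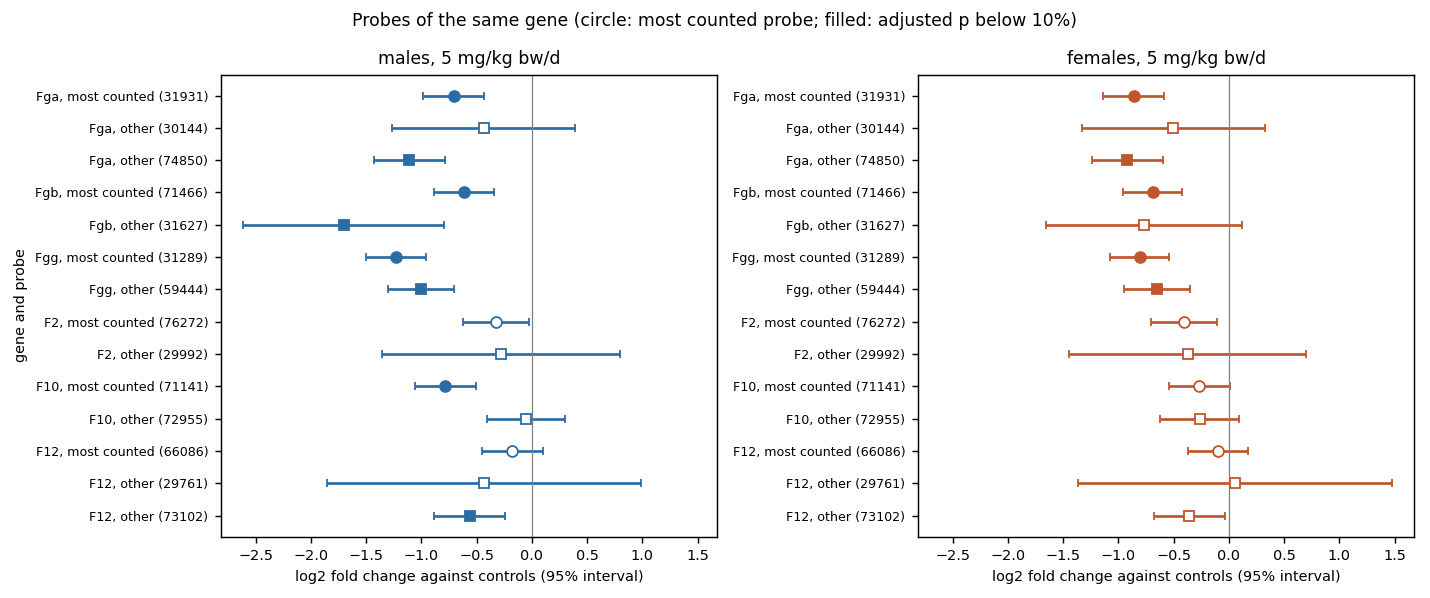
Log2 fold change at 5 mg/kg (horizontal axis) with its 95% interval for each probe of the 6 genes with more than 1 probe, labelled by gene and the probe number in parentheses. For F10 in males the most counted probe lies at -0.78 and the other at -0.05, while the fibrinogen probes with intervals clear of 0 lie on the same side.

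All treated mice lay below all controls for 7 of the 10 genes at 5 mg/kg and for 5 at 0.5 mg/kg among males, beside 3.19% and 1.16% of all probes. In females, this held for 4 genes at 5 mg/kg and for none at 0.5 mg/kg, beside 1.49% and 0.789% of probes.

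Between 0.5 and 5 mg/kg, 5 genes were lower at the higher dose in males (Fga, Fgg, F2, F7 and F11), beside 1.67% of probes called lower in this comparison. F2 was at 113.4% of controls at 0.5 mg/kg and was not called against controls at either dose. F7 fell to 48.2% of its level at 0.5 mg/kg (adjusted p = 0.00582), F11 to 30.9% (adjusted p = 0.00575) and Fgg to 69.4% (adjusted p = 0.0164). In females, Fgg fell to 69.2% (adjusted p = 0.0424) and Fga to 69.7% (adjusted p = 0.0625), beside 0.66% of probes. These female calls were made in 5 (Fgg) and 4 (Fga) of 9 fits that left out 1 mouse, and neither was made in the fit of the compared groups alone (adjusted p = 0.189 and 0.29). In neither sex was a member called higher at 5 than at 0.5 mg/kg.

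The sexes were compared by the difference of their changes. At 5 mg/kg, F11 alone was called in edgeR, with a change that was higher in females than in males by 1.89 ± 0.53 on the log2 scale (adjusted p = 0.0889, 95% interval 0.82 to 2.95). Over all probes, 1.04% were called in either direction at this dose. DESeq2, and edgeR on counts divided by the read step, each called 2 members. In edgeR, 5 members had an unadjusted p below 0.05, beside 2210 of 17877 probes. The change was higher in females for F11, F10 (0.51), Fgg (0.42) and F7 (0.72) and lower in females for F9 (-0.71). For the second probe of F10 the difference was -0.21. The call of F11 was made in 7 of 20 fits that left out 1 mouse, and not in the fit of the groups compared alone or with mouse 355 included. At 0.5 mg/kg, no member was called, beside 0.274% of probes. There F9 (-0.81), F2 (-0.47) and Fgg (0.43), females minus males, had an unadjusted p below 0.05 in edgeR, beside 1951 of 17877 probes. At 0.1 mg/kg none were called, beside 0%, with none at an unadjusted p below 0.05. DESeq2 called 0 members at both of these doses. F7 at 5 mg/kg differed by 0.72 (95% interval 0.04 to 1.39, adjusted p = 0.367), so a sex difference was not shown for it.

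Control females had higher levels of 2 members than control males, beside 2.11% of probes called higher. F9 was at 203, 153, 233, 189 and 111 CPM in control females and at 81.7, 116, 60, 77.5 and 104 CPM in control males. All but 1 of the females lay above all males, and F9 was 2.03 times higher (log2 fold change 1.02 ± 0.21, adjusted p = 0.0011). Fga was 1.36 times higher in females (adjusted p = 0.0691), with no overlap, but its second probe differed by 0.16 on the log2 scale with overlapping mice (adjusted p = 0.883). The call of Fga was made in 2 of 10 fits that left out 1 mouse and in 5 of 8 other settings, whereas that of F9 was made in all of these. The mean of F9 was 178 ± 47.1 CPM (SD, n = 5) in control females and 87.7 ± 22.1 CPM in control males. At 5 mg/kg it was 136 ± 26.02 and 109 ± 13.7 CPM, and the changes did not differ past the threshold (unadjusted p = 0.0173, adjusted p = 0.265).

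Other genes of the pathway were taken from lists, and the counts called below are at 5 mg/kg. At this dose 3.45% of all probes were called lower and 4.83% higher in males, and 1.83% each way in females. Among other clotting factors and contact proteins, at 5 mg/kg, 3 of 8 genes tested were called lower in males and 1 in females. Over the list, the median log2 fold change was -0.28 (males) and -0.58 (females). Kng1, which encodes kininogen, had log2 fold changes of -0.53 (males, adjusted p = 0.00269) and -0.69 (females, adjusted p = 0.00013). In males Klkb1, plasma prekallikrein, fell by 1.17 (adjusted p = 0.00304) and Kng2, a close copy of Kng1 whose reads could be shared with it, by 0.66 (adjusted p = 0.0269).

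Of 11 anticoagulant genes tested, at 5 mg/kg 6 were called lower in males, 5 in females and none higher, with median log2 fold changes of -0.74 and -0.48. Serpinc1, antithrombin, had log2 fold changes of -0.74 (males, adjusted p = 8.11e-08) and -0.32 (females, adjusted p = 0.0529). In males Serpind1, heparin cofactor II, fell by 1.15 and Proc, protein C, by 0.86 (adjusted p = 6.37e-07 and 0.000322). Serping1, the inhibitor of C1 and of contact proteases, had -1.11 (males) and -0.70 (females) on the same scale (adjusted p = 3.56e-05 and 0.028). Apoh and Proz were called lower in both sexes, and Serpina10 in females. Serpina5 did not pass the filter on low counts.

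Of 8 genes tested in the fibrinolysis list, at 5 mg/kg 4 were called lower and 1 higher in males, and 5 lower in females. The median log2 fold changes over the list were -0.64 and -0.74. These counts include Hgfac, which encodes an activator of hepatocyte growth factor and was called lower in both sexes. Plg, plasminogen, had log2 fold changes of -0.86 (males) and -0.63 (females) at adjusted p of 5.20e-09 and 1.22e-05, and Serpinf2, the inhibitor of plasmin, -1.06 and -0.78 at adjusted p of 2.71e-08 and 3.90e-05. Hgfac had -1.60 (males) and -0.88 (females), and Hrg fell in males by 1.29. In females Cpb2, which slows fibrinolysis, and Habp2 each fell by 0.74. The gene called higher was Plau, urokinase, which had no reads in the 5 male controls and 2.41 to 18.9 CPM in males at 5 mg/kg (adjusted p = 0.0514). With a mean of 6.51 and an SD of 6.98 CPM in these males, this call rests on few read steps. Their libraries also held more read steps than those of male controls (median 591295 against 329947).

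Of the 5 genes tested that carboxylate and export clotting factors, at 5 mg/kg 3 were called lower in males and 2 in females. Their median log2 fold changes were -0.73 and -0.32. Ggcx, the vitamin K-dependent carboxylase, had log2 fold changes of -0.89 (males) and -0.51 (females) at adjusted p of 9.44e-05 and 0.0827. Lman1 and Mcfd2 form the receptor that carries factor V and factor VIII out of the endoplasmic reticulum. Lman1 had -0.73 and -0.63 (adjusted p = 0.000829 and 0.0107), and Mcfd2 fell in males by 0.74 (adjusted p = 0.0192). Vkorc1 was not analysed here.

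A list of 14 transcription factors and cytokine receptors of hepatocyte and acute-phase genes was read at 5 mg/kg. Of these, 4 were called lower in males (Hnf4a, Cebpa, Foxa1 and Stat3) and 2 in females (Hnf4a and Stat3). The median log2 fold changes were -0.36 and -0.38. Hnf4a fell by 0.80 and 0.56 (adjusted p = 0.000497 and 0.0439) and Stat3 by 0.79 and 0.75 (adjusted p = 0.00936 and 0.0283). In males Cebpa fell by 0.81 (adjusted p = 0.00589) and Foxa1 by 0.79 (adjusted p = 0.0384). Their part in the fall of the clotting genes was not tested.

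Of 13 other plasma protein genes of hepatocytes, 8 were called lower in each sex at 5 mg/kg and none higher, with a median log2 fold change of -0.88 (males) and -0.56 (females), beside -0.75 in each sex for the clotting genes. Ahsg, fetuin-A, fell by 1.31 and 0.96. Serpina1b fell by 1.77 and 1.03 and Serpina1a by 1.65 and 2.08, but these are close copies that could share reads. Fetub fell by 1.09 and 0.67, Trf by 0.96 and 0.67, and Rbp4 in males by 1.09. Apoa1 and Ambp were called lower in both sexes and Gc in females. Alb and Ttr were not called in either sex, with log2 fold changes of -0.07 and -0.16 (males) and -0.22 and -0.10 (females). Of 12 acute-phase genes, 3 were called lower in males and 4 in females, and none higher, with median log2 fold changes of -0.56 and -0.79. Crp and Itih4 fell in both sexes, Crp by 1.05 and 0.89 and Itih4 by 2.01 and 1.18 on the log2 scale. Orm1 fell in males by 1.71, and Apcs and Itih3 fell in females by 1.65 and 0.69, while Hp and the serum amyloids Saa1 and Saa2 did not pass the threshold.

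**Figure D5:**
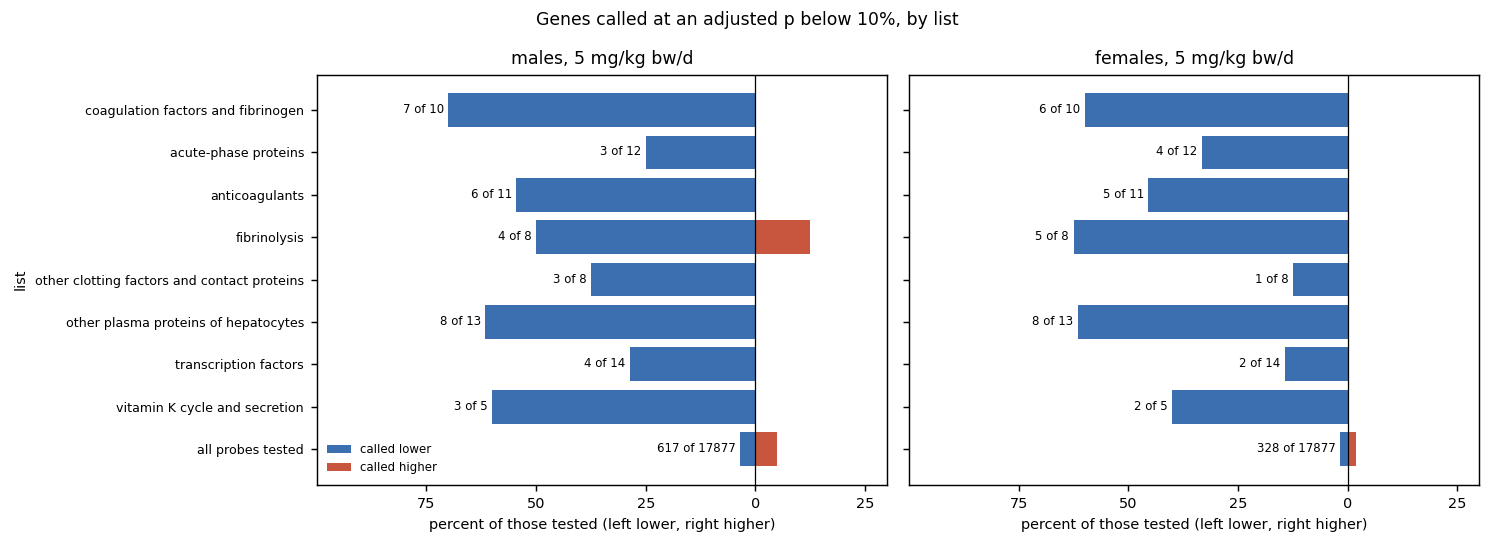
Percent of the genes tested in each list that were called lower (left, blue) or higher (right, red) at 5 mg/kg, with the number called lower of the number tested, and all 17877 probes at the bottom. The clotting genes, with 7 of 10 in males and 6 of 10 in females, stand beside 8 of 13 other plasma protein genes in each sex.

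Markers of other liver cells were read in the same samples. In males at 5 mg/kg, Col1a1 and Col3a1 of stellate cells were called higher, by 1.63 and 2.45 on the log2 scale (adjusted p = 0.0546 and 0.0135). Clec4g of sinusoidal endothelium was called lower by 0.61 (adjusted p = 0.0688). The stellate markers Lrat (1.65), Dcn (0.15), Reln (-0.70) and Des (-1.11) were not called in these males and went in both directions. Over the list of 6 stellate markers, the summed level was 63.7 to 129 CPM in male controls and 157 to 194 CPM in males given 5 mg/kg. For females these ranges were 103 to 154 and 95.5 to 151 CPM. Most of the rise of this sum in males was Col1a1, with means of 16.8 and 51.9 CPM, and Col3a1, with 8.69 and 47.5 CPM. The summed level of 6 Kupffer cell markers was 30.6 to 66.8 CPM in male controls and 41.3 to 51.2 CPM at 5 mg/kg. None of the 6 Kupffer cell, 3 bile duct or 6 lymphocyte markers tested was called in either sex. Platelet markers were near 0, with a summed level of at most 1.85 CPM in controls and at 5 mg/kg for the 2 of 6 that were tested and no reads for Gp1bb, Gp9 and Gp1ba. Of 6 hepatocyte markers, Apoa1, Apob and Cps1 were called lower in males and Apoa1 and Cps1 in females, and none higher. At 5 mg/kg, their summed level was 19120 to 26140 CPM (males) and 15980 to 25480 CPM (females). Most of this sum was Apoa1, with a mean of 26560 CPM in male controls and 14390 CPM in males given 5 mg/kg, against 20300 and 12400 CPM for females. Alb, Ttr and Tdo2 were not called in either sex, and Tdo2 had log2 fold changes of -0.17 (males) and -0.10 (females). The part of a change in cell makeup in the fall of the clotting genes was not tested.

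The genes whose pattern over the 39 mice was most like the mean of the 10 members, by Pearson's r of log2 CPM after subtracting the mean of the controls of each sex, were Serpinf2 (r = 0.917), Trf (0.907), Plg (0.907), Slc37a4 (0.893) and Serpina1d (0.891), among 12408 other genes. The mice share groups and libraries, so that these values are a description. Serpina1d is a close copy of Serpina1a and Serpina1b and could share their reads. Trf encodes transferrin and Slc37a4 the glucose-6-phosphate transporter, and Slc37a4 had log2 fold changes at 5 mg/kg of -1.93 (males) and -1.68 (females), at adjusted p of 1.95e-09 and 9.91e-08. At 0.5 mg/kg in males, Serpinf2, Trf and Serpina1d were also called lower (adjusted p = 0.0448, 0.0155 and 0.0901). Of the members themselves, Fgg (0.895), F11 (0.885) and F7 (0.883) followed their mean most closely, and F12 (0.40) and F9 (0.066) least. Each member is itself part of that mean, and members with wide changes weigh most in it, so this order is a description only.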

How the data were processed

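Livers of 40 mice were measured with TempO-Seq by the authors, who sequenced the libraries on a HiSeq 2500 and, per the submitters' processing notes, used bcl2fastq 2.17.1.14, Bowtie and mm10 (GRCm38). The deposited values are raw counts of reads on each probe, which the authors had not normalized. The library of mouse 355 was left out because its total fell short of the mean by over 2 SD, as in the study.

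The groups were compared with the quasi-likelihood F-test of edgeR 4.0.16 under R 4.3.3, after TMM scaling and edgeR's default filter on low counts, in one fit of 39 libraries with a coefficient for each group. The study used DESeq2, which was an alternative here (DESeq2 1.42.0). P values were two-sided and adjusted by Benjamini and Hochberg over the 17877 probes that passed, with a threshold of 10%. Log2 CPM used a prior count of 2. P values measure the spread between libraries, with 1 section and 1 library per mouse, so that differences between mice and between sections are not separated. The fits were tested on simulated counts, and the exact permutation test on small fixed sets of values with a known p.

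The members and the lists were chosen with earlier results of these data known. All members are named. Of the lists, genes called at 5 mg/kg in either sex are named, up to 6 with values by absolute log2 fold change. Besides DESeq2, the other settings tried were the size factors of DESeq2 in edgeR, upper-quartile scaling, no filter on low counts, a fit of the compared groups alone, all 40 libraries, counts summed over the probes of a gene, the other probes, and leaving out each mouse. Counts divided by the read step and rounded, and the ratios with second probes, were added after seeing the data. Gene positions are those of GENCODE vM21 and promoters those of RefSeq.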

Additional observations from a re-analysis of the deposited data

Results flagged for a closer look

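In 5 of the 80 combinations of member and group, 1 mouse lay apart from the others of its group by Dixon's test, and chance gives about 1 in 20. Fga was at 4121 CPM in male 205 at 0.1 mg/kg, with the next at 3514, and at 3926 CPM in control female 154, with the next at 5214. F2 was at 157.5 CPM in female 354 at 0.5 mg/kg, with the next at 129. F11 was at 71.1 CPM in control male 105, with the next at 42. F12 was at 245.2 CPM in female 452 at 5 mg/kg, with the next at 310. Without control male 105, F11 in males was not called at 0.5 mg/kg. At 5 mg/kg it was called without each of the 10 mice, at adjusted p of 3.37e-08 to 1.46e-06 in edgeR.

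The change of F11 at 5 mg/kg was higher in females than in males by 1.89 on the log2 scale in a test of the difference itself (edgeR, adjusted p = 0.0889). Over the other settings its adjusted p ranged from 0.00957 to 0.202, and over the fits without 1 mouse from 0.0236 to 0.168. It was not called without male 102, 105, 401, 402 or 403 or without female 151, 152, 154, 155, 451, 452, 453 or 455. The low number of read steps in males at 5 mg/kg bears on this value, and the cause of the difference was not tested.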

How the results depend on the processing

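Members called lower at 5 mg/kg in males numbered 7 without any 1 mouse and 6 to 8 over the other settings. The settings that moved a count by over 1.5 times were the following. With all 40 libraries, which brings back the shallow library of mouse 355, the counts were 0 for males at 0.5 mg/kg, 2 for females at 5 mg/kg, 1 between 5 and 0.5 mg/kg in males, 0 for the sex difference at 5 mg/kg and 1 between control females and males. Without the filter on low counts, 2 members were called in males at 0.5 mg/kg. In a fit of the groups compared alone, 0 were called for the sex difference at 5 mg/kg and 0 between 5 and 0.5 mg/kg in females. DESeq2 and counts divided by the read step each called 2 for the sex difference. Upper-quartile scaling and probes summed by gene each called 1 between control females and males. With the second most counted probes of Fga and Fgg, over the most counted probe of Fgb, 2 fibrinogen ratios passed in place of 4. These were Fga to Fgb in males at 0.5 and 5 mg/kg, and none of the 4 that passed with the most counted probes passed again. Without 1 mouse, counts were 1 to 3 in males at 0.5 mg/kg, 5 to 6 in females at 5 mg/kg, 0 to 1 for the sex difference at 5 mg/kg, 4 to 5 and 0 to 2 between 5 and 0.5 mg/kg in males and females, 1 to 3 between controls and 2 to 5 for ratios. At 0.5 mg/kg in males, F11 lost its call without control 105 or without treated male 301 or 305, F7 kept its call only without 301 or 303, and F10 only without 101. F11 at 5 mg/kg in females lost its call without control 152, 153 or 155 or without treated female 451, 454 or 455. Between 5 and 0.5 mg/kg, F2 in males lost its call without 301, 302, 401, 403 or 404, and Fga and Fgg in females without 351, 354, 451 or 453 (Fga also without 455). The higher Fga of control females was called only without 105 or 154. Direction turned in 4 values that were not called in either setting, all in females. These are Fgb at 0.5 mg/kg on its second probe (0.063), Fgg at 0.5 mg/kg with all 40 libraries (0.509), and F12 at 0.5 and 5 mg/kg on its least counted probe (0.054 and 0.053). The cause of these differences was not tested. No paired analysis was possible because animal numbers are not shared between groups. Genes with few read steps, F11 above all, limit what the depth can show.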

Other observations

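The library that was left out, mouse 355, a female at 0.5 mg/kg, held 108342 reads of Fgg, 61591 of Fga and 41178 of Fgb. It held 0 reads of F5 and of F7, 321 of F11 and 595 of F9. Its Fgg stood above its Fga, whereas Fga stood above Fgg in each of the other females at this dose.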
